A study of Mus musculus with 112 samples.

Results

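Caloric restriction (CR) was compared with a control diet in the hearts of male mice, and the question here was whether the change that CR brought to heart transcripts differed between strains whose restricted food was lowered a further time during the study and strains whose restricted food stayed the same. The extra-cut strains were 129S1/SvImJ and C57BL6/J, and the unchanged strains were DBA/2J, CBA/J, C3H/HeJ and B6C3F1/J, the last being the hybrid of C57BL6/J and C3H/HeJ. For each gene the diet effect of a strain was its mean log2 signal in CR mice minus that in control mice, and the measure reported throughout is the mean diet effect of the extra-cut strains minus the mean diet effect of the unchanged strains, called the difference below. It rests on 95 of the 112 arrays of the series, 32 from extra-cut strains and 63 from unchanged strains. The 16 Balbc/J arrays were left out because those mice received more food in both arms, and CR replicate 7 of DBA/2J was left out as a failed array.

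Each array (Affymetrix Mouse Gene 1.0 ST) held heart RNA of 1 mouse. Every group thus had 8 mice, except for 7 DBA/2J mice on CR. All mice were housed singly and had received 84 kcal per week of a purified diet until 8 weeks of age. CR mice then had the restricted diet and control mice stayed on the control diet until 22 weeks of age, when tissue was taken after an overnight fast. Food was given on set weekdays, and the CR mice of the extra-cut strains started on the same ration as the other CR mice before theirs was lowered. No change to the control ration of any of the 6 strains is described. The feeding change was made in 2 strains and not in the other 4, so it cannot be told apart from the strains themselves, and a p-value below measures the spread between mice within these 6 strains only. For each mouse, neither the weekday and hour of collection nor the time since the last feeding was known here.

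Among the genes described below are those of the circadian clock and of fasting. In mammals the clock is a feedback loop: the proteins ARNTL (also called BMAL1) and CLOCK pair up on E-box sequences and switch on Per, Cry, Nr1d, Dbp, Tef, Bhlhe41 and Ciart, and the products of several of these then block ARNTL and CLOCK or silence their genes. Arntl transcripts are therefore high when those of Dbp and Per2 are low, and the clocks of peripheral tissues, heart among them, follow the time of feeding. PPAR-alpha is the nuclear receptor that fatty acids activate during a fast, and its targets let heart muscle burn fat and spare glucose.

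Some arrays and some tissue pieces stood apart. Besides the failed array, 5 arrays correlated less with the rest of their group than Dixon's criterion allows, namely C57BL6/J CR replicate 4, C3H/HeJ control replicate 6, CBA/J control replicate 1, DBA/2J control replicate 5 and B6C3F1/J CR replicate 2. Their correlations ran from 0.8945 to 0.9855, against a median of 0.9931 over the 95 arrays. The mean signal of 13 atrial muscle markers was nearly constant in 129S1/SvImJ (6.53 to 6.66 in CR mice and 6.49 to 6.65 in control mice). In C57BL6/J it ran from 6.41 to 9.52 in CR mice and from 6.78 to 10 in control mice. All 6 strains showed the ventricular markers of heart, with group means between 9.88 and 10.8. A fold change in such tissue cannot separate fewer cells of a type from less RNA per cell. Counts below are therefore set beside those without the 5 arrays, or with 2 covariates, the mean signals of the atrial markers and of the white adipocyte markers. Without the 5 arrays 9.38% of all genes passed for the difference, and with the covariates 0.261%. Leaving out the 5 arrays did not even out the tissue between the strain sets. The extra-cut minus unchanged diet effect on the atrial marker mean went from -1.188 to -1.578. It went from -0.646 to -0.933 for white adipocyte and from 0.276 to 0.426 for ventricular markers, but from -0.042 to 0.015 for endothelial markers.

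Of 19938 genes, 58 had a difference at an adjusted p under 0.05 (0.291% of the genes tested; limma), 37 higher and 21 lower in the extra-cut strains. At an unadjusted p under 0.05 there were 1921. The count depended heavily on the 5 arrays that stood apart: without them 1871 genes passed, 1091 higher and 780 lower, and all 58 were among these. C57BL6/J CR replicate 4 alone moved the count to 261, CBA/J control replicate 1 to 209, DBA/2J control replicate 5 to 99 and C57BL6/J control replicate 6 to 89. With the marker means as covariates 52 genes passed, 34 of them among the 58. The direction of all 58 genes was the same under each of the 18 alternatives in which they could be tested. As the 58 were picked for their difference on these same arrays, a kept direction was likely from the start.

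**Figure D1:**
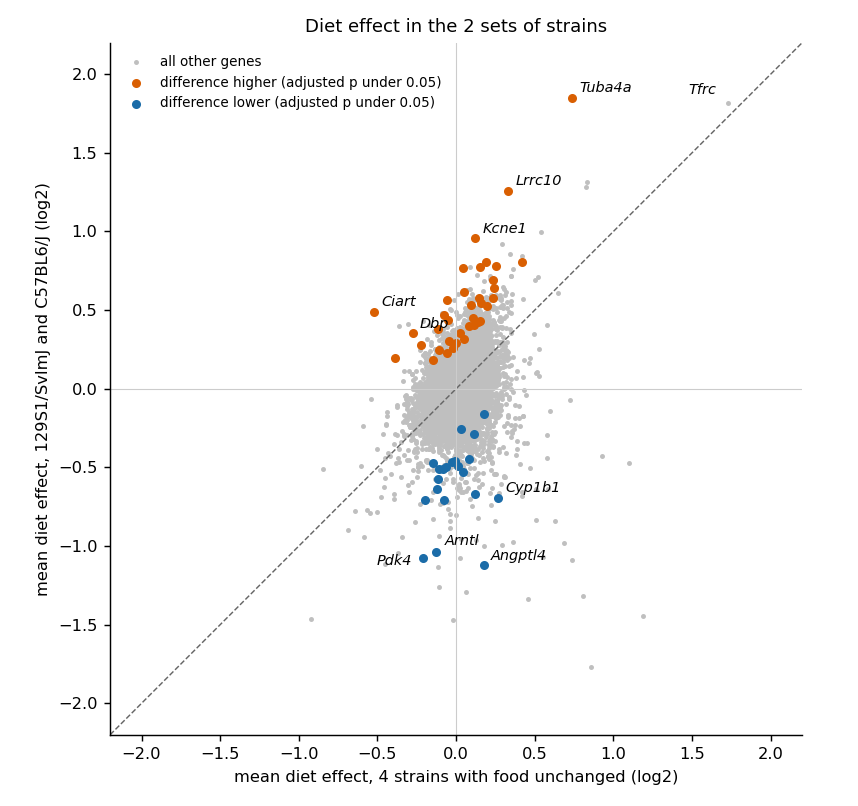
Mean diet effect (CR minus control, log2 signal) of 129S1/SvImJ and C57BL6/J on the vertical axis against that of the 4 unchanged strains on the horizontal axis, 1 point per gene, with equal effects on the dashed line. The 37 genes with a higher difference are orange and the 21 with a lower one are blue; Tuba4a lies at 1.85 against 0.74, and Tfrc lies close to the line.

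CR itself changed more genes when each set of strains was taken alone. In the extra-cut strains 1281 genes passed (6.42% of those tested), 850 higher and 431 lower with CR. In the unchanged strains 616 passed (3.09%), 389 higher and 227 lower. Of the 616, 572 (92.9%) had the same sign in the extra-cut strains and 280 (45.5%) also passed there in the same direction, while over all genes 61.8% had the same sign. The difference passed its own test in 18 of the 616, a test that 0.291% of all genes passed. Both tests use the same mice of the unchanged strains. Across genes the mean effects of the strain sets correlated at r = 0.303, a description over genes that share arrays and are not replicates. Between 129S1/SvImJ and C57BL6/J themselves r was 0.233. With the single unchanged strains r ran from 0.144 to 0.437 for 129S1/SvImJ and from -0.166 to 0.249 for C57BL6/J. It was below 0.233 with CBA/J alone for 129S1/SvImJ, and with C3H/HeJ, CBA/J and B6C3F1/J for C57BL6/J. By this description the extra-cut strains were not set apart as a pair.

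The clearest group was the circadian clock. Of 17 measured genes of a list of 19, 6 had a higher difference (Ciart, Dbp, Per2, Bhlhe41, Tef and Nr1d2) and 2 a lower one (Arntl and Clock), against 0.291% of all genes called in either direction. The median difference of the 17 genes was 0.34 on the log2 scale, against 0.00 over all genes. Without the 5 arrays that stood apart, 11 were higher and 2 lower (76.5%, against 9.38% of all genes), and with the marker covariates 7 were higher and 2 lower (52.9%, against 0.261%). In 12 of the 17 genes both extra-cut strains lay outside the range of all 4 unchanged strains, above it in 10 and below it in 2, and 12.3% of all genes did so.

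**Figure D2:**
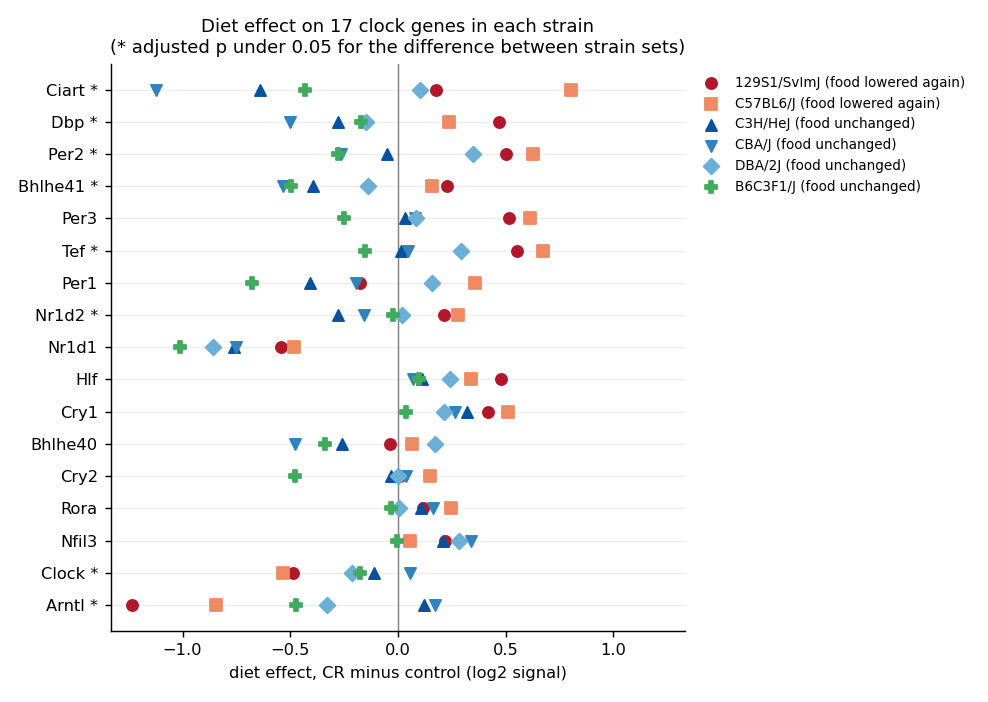
Diet effect (CR minus control, log2 signal, horizontal axis) on each of 17 clock genes in 6 strains, ordered by the difference between strain sets, with an asterisk where that difference passed the test. For Arntl and Clock the red and orange points of 129S1/SvImJ and C57BL6/J lie left of all 4 unchanged strains; for Dbp, Tef, Per2 and Bhlhe41 they lie right of them.

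The activators of the loop were lower with CR in the extra-cut strains. Arntl encodes the partner of CLOCK. In 129S1/SvImJ its log2 signal had a lowest, median and highest value of 4.86, 5.14 and 5.36 in CR mice, against 5.9, 6.25 and 7.11 in control mice. The groups did not overlap. In C57BL6/J the values were 5.13, 5.61 and 5.9 in CR mice and 5.38, 6.42 and 7.21 in control mice, and here the groups overlapped. In the 4 unchanged strains the ranges of CR and control mice overlapped in every strain, and the diet effects were 0.12 in C3H/HeJ, 0.17 in CBA/J, -0.33 in DBA/2J and -0.47 in B6C3F1/J. The mean effect was -1.04 in the extra-cut strains and -0.13 in the unchanged strains, and the difference was -0.91 ± 0.165 (SE; adjusted p = 0.000426). Clock, the gene of the partner protein, was lower in all 8 CR mice than in any control mouse in both extra-cut strains. Its median was 7.64 in CR and 8.14 in control mice of 129S1/SvImJ, and 8.01 in CR and 8.6 in control mice of C57BL6/J. The difference for Clock was -0.40 ± 0.0665 (SE; adjusted p = 0.000138).

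Of the genes that the loop drives, 6 of those measured had a higher difference. Ciart encodes a repressor of the ARNTL and CLOCK pair. Its log2 signal in C57BL6/J had a lowest, median and highest value of 5.59, 6.74 and 7.44 in CR mice, against 4.69, 6.15 and 6.88 in control mice. In 129S1/SvImJ it was 6.85, 7.68 and 7.81 in CR mice and 6.67, 7.39 and 7.79 in control mice. In CBA/J all 8 CR mice were below all control mice, at 5.89, 6.3 and 6.62 in CR mice and 6.77, 7.41 and 7.75 in control mice. The values were 5.48, 6.41 and 6.87 in CR mice of C3H/HeJ, against 6.35, 6.95 and 7.39 in its control mice. They were 6.38, 7.06 and 7.38 in CR mice of DBA/2J, against 6.11, 6.94 and 7.3 in control mice, and 6.09, 6.57 and 7.23 in CR mice of B6C3F1/J, against 6.55, 7.03 and 7.39 in control mice. CR and control mice thus overlapped in every strain but CBA/J. The mean effect was 0.49 in the extra-cut strains and -0.52 in the unchanged strains, each past its own test, and the difference was 1.01 ± 0.183 (SE; adjusted p = 0.000426).

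Dbp and Tef encode transcription factors that carry the rhythm to output genes. The effect on Dbp was 0.47 in 129S1/SvImJ and 0.24 in C57BL6/J, against -0.28 in C3H/HeJ, -0.50 in CBA/J, -0.15 in DBA/2J and -0.17 in B6C3F1/J, and the difference was 0.63 ± 0.104 (SE; adjusted p = 0.000128). Of the clock genes that passed, Dbp, Bhlhe41 and Clock also passed in each extra-cut strain alone against the unchanged strains. For Tef the effect was 0.61 in the extra-cut and 0.05 in the unchanged strains, with a difference of 0.56 ± 0.101 (adjusted p = 0.000426). Bhlhe41, a repressor that binds E-boxes itself, had an effect of 0.19 in the extra-cut strains, which did not pass (adjusted p = 0.187), and fell in the unchanged strains (-0.39, adjusted p = 4.41e-06). Its difference was 0.58 ± 0.105 (adjusted p = 0.000426). Per2, a core repressor, had a difference of 0.63 ± 0.156 at an adjusted p of 0.045, and Nr1d2, which silences Arntl, one of 0.36 ± 0.0751 at 0.00663. The call for Per2 was lost on leaving out many single arrays: it passed with 42 of the 95 left out in turn. Wee1, a cell cycle kinase whose gene the clock drives, stood outside the list and had a difference of 0.62 ± 0.122 (adjusted p = 0.00196).

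Other clock genes did not pass. Nr1d1, which like Nr1d2 silences Arntl, was lower with CR in both strain sets (-0.51 in the extra-cut strains, adjusted p = 0.0354, and -0.85 in the unchanged strains, adjusted p = 9.7e-08), and its difference was 0.34 ± 0.197 (adjusted p = 0.607). Per3 had a difference of 0.58 (adjusted p = 0.178), Per1 0.37 (0.432), Hlf 0.28 (0.261), Cry1 0.26 (0.169), Bhlhe40 0.24 (0.64), Cry2 0.20 (0.649), Rora 0.12 (0.661) and Nfil3 -0.07 (0.908). Of these, Per3, Per1, Hlf, Cry1 and Rora passed without the 5 arrays that stood apart.

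Of the E-box on which ARNTL and CLOCK sit, only the form CACGTG was sought, a palindrome that reads alike on both strands. It was searched in the 250 bases before each annotated start (RefSeq sequences, assembly GRCm38.p6), for 15 of the 17 clock genes, whose starts were in the table. Of these 15 genes 5 held it (33.3%), against 1854 of 27025 genes (6.86%). Among the 58 genes with a difference 43 were in the table, and 8 of them held it (18.6%): the clock genes Ciart, Tef and Bhlhe41, and Bnip3, Hopx, Lnx1, Slc25a33 and Wdr19. No test was made of these shares, and a match is only a run of letters. The promoters of the clock genes with a higher difference that held an E-box are shown to let the letters be seen, from 5′ to 3′ with E-boxes in capitals. Ciart had 3, starting 116, 58 and 44 bases before the start, at chr3:95882229-95882478 on the minus strand; Bhlhe41 had 1 at 153 bases (chr6:145865421-145865670, minus strand), and Tef had 1 in each of 2 promoters, at 127 and 138 bases (chr15:81802423-81802672 and chr15:81811164-81811413, plus strand).
Ciart: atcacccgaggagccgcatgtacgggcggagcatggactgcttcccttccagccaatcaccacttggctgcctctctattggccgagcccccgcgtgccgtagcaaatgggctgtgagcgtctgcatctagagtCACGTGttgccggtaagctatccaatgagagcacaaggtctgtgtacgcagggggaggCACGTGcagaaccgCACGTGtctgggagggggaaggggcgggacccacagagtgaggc
Bhlhe41: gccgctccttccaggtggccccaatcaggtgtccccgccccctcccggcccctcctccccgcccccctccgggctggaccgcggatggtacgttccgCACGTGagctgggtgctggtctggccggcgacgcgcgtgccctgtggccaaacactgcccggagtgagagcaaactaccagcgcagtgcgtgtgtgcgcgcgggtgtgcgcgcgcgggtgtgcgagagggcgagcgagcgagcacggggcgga
Tef, upstream promoter: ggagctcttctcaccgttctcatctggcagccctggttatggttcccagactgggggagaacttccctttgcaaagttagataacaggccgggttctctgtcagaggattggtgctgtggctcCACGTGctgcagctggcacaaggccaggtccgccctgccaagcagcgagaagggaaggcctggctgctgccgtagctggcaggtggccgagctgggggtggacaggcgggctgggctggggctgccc
Tef, downstream promoter: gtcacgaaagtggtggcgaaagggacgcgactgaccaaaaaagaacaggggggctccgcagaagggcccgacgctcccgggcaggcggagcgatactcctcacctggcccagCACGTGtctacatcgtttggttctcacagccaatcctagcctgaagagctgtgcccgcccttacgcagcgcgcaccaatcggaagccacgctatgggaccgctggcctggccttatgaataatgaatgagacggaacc

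In these windows Dbp, Nr1d2, Arntl and Clock had no CACGTG, and the table held no start for Per2. The D-box letters TTANGTAA, read by DBP and TEF, were in 0 of the 43 genes, against 2.44% of all genes. The letters AGGTCA, part of the site of the NR1D and ROR receptors, were in 7 of the 43 (16.3%), against 15.8% of all genes.

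Tuba4a, which encodes an alpha-tubulin of microtubules, had the largest positive difference and was the only gene called under all 18 alternatives and with each single array left out. In 129S1/SvImJ its lowest, median and highest log2 signals were 10.4, 11.3 and 11.4 in CR mice, against 9.13, 9.34 and 9.46 in control mice. In C57BL6/J they were 9.58, 10.8 and 11.1 in CR mice, against 8.39, 8.77 and 9.17 in control mice. No CR mouse overlapped a control mouse in either strain. In C3H/HeJ they were 10.8, 11 and 11.2 in CR mice and 9.92, 10.3 and 10.8 in control mice, and in CBA/J 10.8, 11.4 and 11.6 in CR mice and 10.4, 10.9 and 11.3 in control mice. In DBA/2J they were 10.5, 11 and 11.1 in CR mice and 9.6, 10.2 and 10.3 in control mice, and in B6C3F1/J 10.7, 11 and 11.1 in CR mice and 9.57, 9.87 and 10.1 in control mice. The arms overlapped only in CBA/J. The diet effect was 1.85 in the extra-cut strains and 0.74 in the unchanged strains, and the difference was 1.11 ± 0.117 (SE; adjusted p = 7.14e-11), a 2.16-fold larger ratio. Of 11 measured tubulins on the list of 14, Tuba4a alone passed, when 0.291% of all genes did. The median difference of the list was 0.11, and 6 tubulins rose with CR in each strain set. Of all genes, 6.42% passed in either direction in the extra-cut strains and 3.09% in the unchanged strains.

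**Figure D3:**
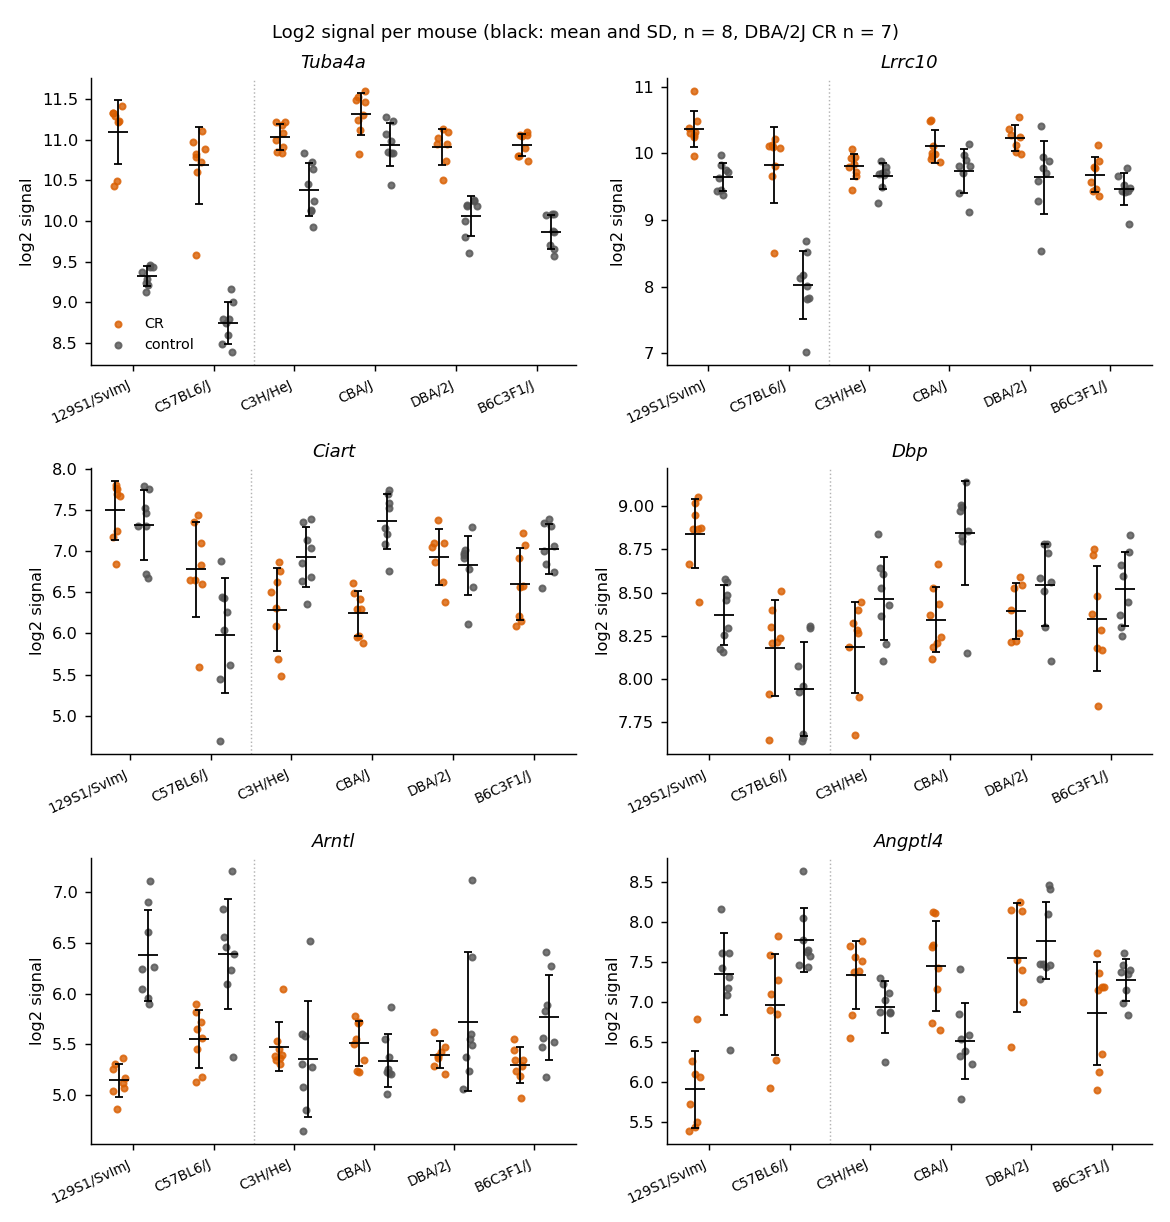
Log2 signal of 6 genes in every mouse of 6 strains, CR in orange left of control in grey, with black bars for the mean and SD of 8 mice (7 for DBA/2J on CR) and extra-cut strains left of the dotted line. For Tuba4a the control mice of 129S1/SvImJ and C57BL6/J (8.39 to 9.46) lie below all control mice of the other strains (9.57 or more); for Arntl their control means (6.38 and 6.4) are the highest, with single mice of other strains reaching as far.

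Lrrc10 and Kcne1 are genes of heart muscle. Lrrc10, which encodes a protein of the Z-disc and intercalated disc, had lowest, median and highest log2 signals of 9.96, 10.3 and 10.9 in CR mice of 129S1/SvImJ, against 9.38, 9.68 and 9.98 in control mice. In C57BL6/J they were 8.5, 10.1 and 10.2 in CR mice and 7.02, 8.07 and 8.69 in control mice. Only 1 CR mouse reached the range of the control mice in each of these strains. Medians in the unchanged strains ran from 9.67 to 10.2 in CR mice and from 9.46 to 9.81 in control mice, and the arms overlapped in every strain. The difference was 0.93 ± 0.146 (SE; adjusted p = 9e-05), and Lrrc10 was also 1 of 11 genes whose effect differed between 129S1/SvImJ (0.71) and C57BL6/J (1.8). Against the unchanged strains, C57BL6/J alone differed by 1.47 ± 0.189 (adjusted p = 1.08e-07) and 129S1/SvImJ alone by 0.38 ± 0.189 (adjusted p = 1), and DBA/2J, an unchanged strain, had an effect of 0.59. The ventricular marker mean of C57BL6/J was 10.5 in CR mice, against 9.88 in control mice. The part of tissue make-up in the values of Lrrc10 was tested only through the marker covariates, with which the difference was 0.76 (adjusted p = 0.000146).

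Kcne1 encodes the beta subunit of the slow delayed rectifier potassium channel. In 129S1/SvImJ its lowest, median and highest log2 signals were 5.73, 7.15 and 7.38 in CR mice and 4.97, 5.52 and 5.68 in control mice, without overlap. In C57BL6/J they were 4.85, 5.51 and 5.89 in CR mice and 4.31, 5.04 and 5.5 in control mice, with overlap. The diet effects in the unchanged strains were 0.08 in C3H/HeJ, -0.20 in CBA/J, 0.14 in DBA/2J and 0.46 in B6C3F1/J, the last close to the 0.49 of C57BL6/J. The difference was 0.84 ± 0.146 (adjusted p = 0.000324). It came mostly from 129S1/SvImJ, which differed from the unchanged strains by 1.30 ± 0.188 (adjusted p = 1.13e-05), while C57BL6/J differed from them by 0.37 ± 0.188 (adjusted p = 0.327). Kcne1 was the 1 of 20 measured genes of the cardiac ion channel list that passed, when 0.291% of all genes did. Gm4956, a predicted gene, was dim: its median was 5.18 in CR and 4.46 in control mice of 129S1/SvImJ, and 5.03 in CR and 4.11 in control mice of C57BL6/J, against medians of 3.61 to 4.34 in CR mice and 3.63 to 4.37 in control mice of the unchanged strains. Its difference was 0.72 ± 0.127 (adjusted p = 0.000324).

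The other genes with the highest differences were Slc25a33, a mitochondrial pyrimidine nucleotide carrier (0.61 ± 0.139, adjusted p = 0.0154), and Mid1ip1, which promotes fatty acid synthesis through acetyl-CoA carboxylase (0.55 ± 0.11, adjusted p = 0.0024). Stip1, a cochaperone that joins HSP70 to HSP90, was the 1 of 21 heat shock genes that passed (0.30 ± 0.0646, adjusted p = 0.0108), against 0.291% of all genes.

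The genes with the lowest differences included targets of PPAR-alpha. Of 21 measured genes of a list of 24, 3 passed, all lower: Angptl4, Pdk4 and Ucp3, when 0.291% of all genes passed in either direction. These genes are not particular to that list: Angptl4 and Pdk4 are also on the list of the glucocorticoid response, and Ucp3 on that of thyroid hormone targets. Which regulator acted on them was not tested. With CR, 14 of the 21 fell in the extra-cut strains, where 6.42% of all genes passed, and 6 fell in the unchanged strains, where 3.09% passed. None rose in either. The median difference was -0.24, against 0.00 over all genes, with 17 of 21 below 0. Without the 5 arrays that stood apart 8 passed, all lower (38.1%, against 9.38% of all genes), and with the marker covariates 5 passed, all lower (23.8%, against 0.261%), Acot1 and Acot2 being the additional genes.

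**Figure D4:**
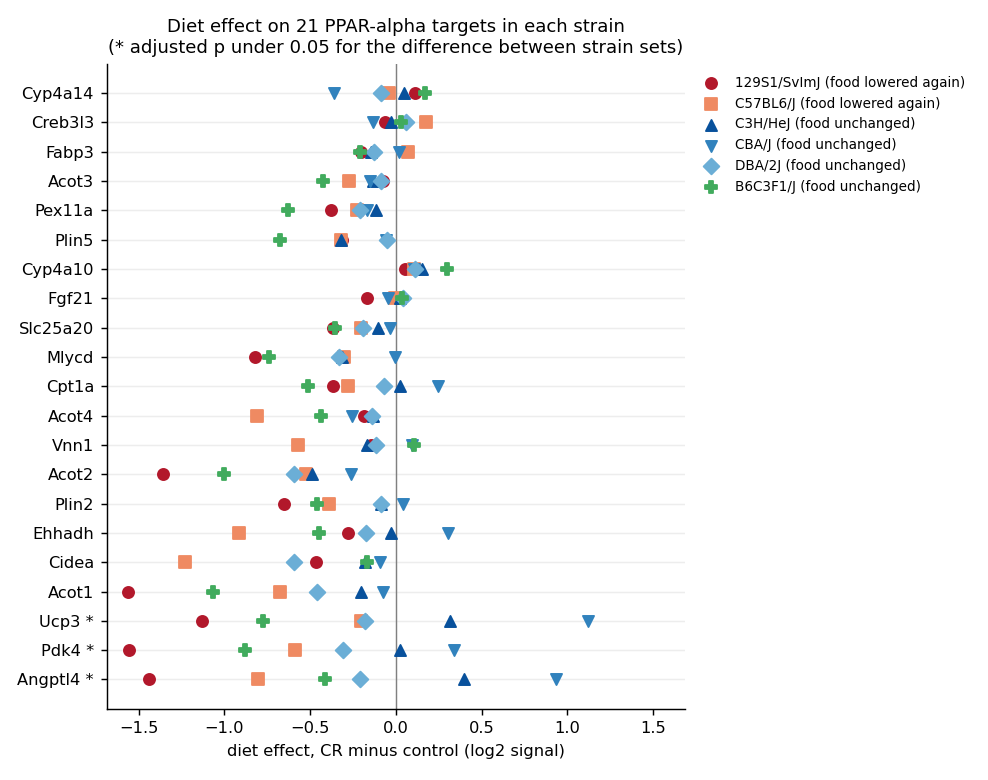
Diet effect (CR minus control, log2 signal, horizontal axis) on 21 PPAR-alpha targets in each of 6 strains, ordered by the difference between strain sets, with an asterisk where it passed the test. For Angptl4 both extra-cut strains lie left of all unchanged strains; for Pdk4 and Ucp3 the green cross of B6C3F1/J lies between 129S1/SvImJ and C57BL6/J.

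Angptl4 encodes a secreted inhibitor of lipoprotein lipase that is induced by fasting. In 129S1/SvImJ its lowest, median and highest log2 signals were 5.39, 5.9 and 6.79 in CR mice, against 6.4, 7.36 and 8.17 in control mice, and 7 of 8 CR mice were below all control mice. In C57BL6/J they were 5.93, 7 and 7.82 in CR mice, against 7.44, 7.64 and 8.64 in control mice, with 6 of 8 CR mice below. In the unchanged strains CR mice lay on either side of control mice. The medians were 7.45 in CR and 6.95 in control mice of C3H/HeJ, and 7.56 in CR and 6.46 in control mice of CBA/J. They were 7.52 in CR and 7.47 in control mice of DBA/2J, and 7.17 in CR and 7.36 in control mice of B6C3F1/J. The mean effect was -1.12 in the extra-cut and 0.18 in the unchanged strains, and the difference of -1.30 ± 0.211 (SE; adjusted p = 0.00011) was the largest in size of the 58.

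Pdk4 encodes the kinase that shuts pyruvate dehydrogenase and so spares glucose. All 8 CR mice of 129S1/SvImJ were below its control mice, with a lowest, median and highest of 9.63, 11 and 12.1 in CR mice, against 12.2, 12.4 and 12.6 in control mice. In C57BL6/J the values were 10.5, 11.6 and 12.2 in CR mice and 11.9, 12 and 12.3 in control mice. B6C3F1/J, an unchanged strain, had an effect of -0.88, beyond the -0.59 of C57BL6/J, so that Pdk4 was not outside the range of the unchanged strains in both extra-cut strains. Its difference was -0.87 ± 0.189 (adjusted p = 0.0108). Ucp3, a mitochondrial carrier that rises when fat supply is high, had effects of -1.13 in 129S1/SvImJ and -0.20 in C57BL6/J, against 0.32 in C3H/HeJ, 1.12 in CBA/J, -0.18 in DBA/2J and -0.77 in B6C3F1/J. The difference of -0.79 ± 0.198 stood at an adjusted p of 0.0498 and passed with 39 of the 95 arrays left out in turn. Pdk4 and Ucp3 passed for 129S1/SvImJ alone against the unchanged strains (-1.35 ± 0.243, adjusted p = 0.000811, and -1.25 ± 0.256, adjusted p = 0.00529), and C57BL6/J alone gave -0.38 (adjusted p = 0.479) and -0.32 (adjusted p = 0.598).

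Other genes with a lower difference had varied roles. Cyp1b1, a cytochrome P450 of steroid and fatty acid metabolism, had lowest, median and highest log2 signals of 5.55, 6.07 and 7.81 in CR mice of C57BL6/J, against 6.28, 7.37 and 8.06 in control mice. In 129S1/SvImJ they were 5.55, 5.93 and 6.42 in CR mice and 6.06, 6.33 and 7 in control mice. Medians in the unchanged strains were 5.91 to 6.14 in CR mice and 5.29 to 6.2 in control mice, and all arms overlapped. C57BL6/J alone differed from the unchanged strains by -1.26 (adjusted p = 0.0176) and 129S1/SvImJ alone by -0.66 (adjusted p = 1). The difference of -0.96 ± 0.232 (adjusted p = 0.0337) shrank to -0.47 (adjusted p = 0.122) with the marker covariates.

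Fam124b had medians of 4.26 in CR and 5.15 in control mice of 129S1/SvImJ, where the arms did not overlap, and of 4.15 in CR and 4.47 in control mice of C57BL6/J. Its medians in the unchanged strains ran from 4.35 to 4.82 in CR mice and from 4.46 to 4.75 in control mice. The difference was -0.63 ± 0.143 (adjusted p = 0.0156). Slamf7, a receptor of immune cells, was dim, with medians of 4.16 in CR and 4.83 in control mice of C57BL6/J and of 3.59 in CR and 3.78 in control mice of 129S1/SvImJ. All 8 CR mice of C57BL6/J were below its control mice. The medians were 3.82 to 4.19 in CR mice and 3.86 to 4.17 in control mice of the unchanged strains. The difference was -0.57 ± 0.141 (adjusted p = 0.0382), and -0.45 (adjusted p = 0.258) with the marker covariates. For Slamf7, C57BL6/J alone differed from the unchanged strains by -0.88 (adjusted p = 0.00516) and 129S1/SvImJ alone by -0.27 (adjusted p = 1). Klra2, which encodes a receptor of natural killer and myeloid cells, was dimmer still (mean log2 signal 3.01) and had a difference of -0.53 ± 0.118 (adjusted p = 0.0144), with -0.85 for C57BL6/J alone (adjusted p = 0.0014) and -0.21 for 129S1/SvImJ alone (adjusted p = 1).

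Clmp, a junctional adhesion protein, had a difference of -0.52 ± 0.0903 (adjusted p = 0.000324). Bnip3, which directs mitochondria to autophagy and is a target of FoxO, had one of -0.51 ± 0.114 (adjusted p = 0.0154) and was the 1 gene that passed of the autophagy list (25 measured) and of the FoxO and atrophy list (19 measured). Over all genes 0.291% passed. H1f2 encodes a linker histone, and its effects were -0.64 in 129S1/SvImJ and -0.51 in C57BL6/J, against -0.03 in C3H/HeJ, 0.18 in CBA/J, -0.36 in DBA/2J and -0.25 in B6C3F1/J (difference -0.46 ± 0.0745, adjusted p = 0.00011). Cldn15, a tight junction claudin, had a difference of -0.50 ± 0.117 (adjusted p = 0.0254), and -0.34 (adjusted p = 0.23) with the marker covariates. Mmp14, a membrane-bound matrix protease, was the 1 of 36 extracellular matrix genes that passed (-0.44 ± 0.0992, adjusted p = 0.0162), and it also failed with the covariates (-0.34, adjusted p = 0.15).

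The difference of a gene can sit among the CR mice, among the control mice, or in both. Among CR mice the mean Tuba4a signal was 10.9 in extra-cut and 11 in unchanged strains, and among control mice 9.04 in extra-cut and 10.3 in unchanged strains. For Arntl it was 5.35 in extra-cut and 5.42 in unchanged strains among CR mice, and 6.39 in extra-cut and 5.55 in unchanged strains among control mice. The distance between strain sets was thus 0.16 (Tuba4a) and 0.07 (Arntl) in size among the CR mice, and 1.28 (Tuba4a) and 0.84 (Arntl) among control mice. For Angptl4 the strain sets stood apart in both arms, in opposite directions. Its means were 6.44 in extra-cut and 7.3 in unchanged strains among CR mice, and 7.56 in extra-cut and 7.12 in unchanged strains among control mice. Over the 58 genes the control mice of the strain sets were farther apart than the CR mice in 37 (63.8%), and over all genes in 50.7%. Each of these distances includes the level at which a strain expresses the gene on any diet, which cancels only in the difference.

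Most of the called genes had both extra-cut strains beyond the unchanged ones. In 55 of the 58 the effects of 129S1/SvImJ and C57BL6/J lay both above (37) or both below (18) those of all 4 unchanged strains, and over all genes 1299 lay above and 1156 below (12.3% together). A gene with a large difference is likelier to be of this kind by its construction. The 3 exceptions, Pdk4, Ucp3 and Ypel3, are named after their values were seen. Of the 37 genes with a higher difference 35 rose with CR in the extra-cut strains, while in the unchanged strains 11 rose and 5 fell. Of the 21 with a lower difference 20 fell with CR in the extra-cut strains, and in the unchanged strains 1 fell and 1 rose. Of the 58, 23 had mean effects of opposite sign in the strain sets.

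Each extra-cut strain was also set alone against the unchanged strains. For 129S1/SvImJ 28 genes passed (0.14% of those tested), 12 higher and 16 lower, and for C57BL6/J 245 passed (1.23%), 83 higher and 162 lower. The 58 genes included 23 that passed for 129S1/SvImJ and 37 that passed for C57BL6/J, 7 of them for both and 5 for neither. The count for C57BL6/J was 1678 without its CR replicate 4, 76 without its CR replicate 3 and 30 with the marker covariates, and that for 129S1/SvImJ was 54 with them. These comparisons share the mice of the unchanged strains, and the residual variance of each gene is shared over all 12 groups. For the diet effect within a strain, 436 genes (129S1/SvImJ) and 922 genes (C57BL6/J) passed with that shared variance. In the unchanged strains 2421 genes passed in B6C3F1/J, more than in either extra-cut strain, and 8 in C3H/HeJ, 31 in CBA/J and 18 in DBA/2J. With the arrays of each strain alone, 1361 (129S1/SvImJ) and 50 (C57BL6/J) passed, against 181 (B6C3F1/J), 11 (C3H/HeJ), 3 (CBA/J) and 2 (DBA/2J). Which of the extra-cut strains has the higher count thus depends on the variance used. Between the extra-cut strains themselves 11 genes differed (0.0552%), 4 higher and 7 lower in 129S1/SvImJ, and 150 did without C57BL6/J CR replicate 4.

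Acta2, smooth muscle actin, had an effect of 1.37 in 129S1/SvImJ and -0.41 in C57BL6/J, apart by 1.78 ± 0.356 (adjusted p = 0.0151). Dio2, which activates thyroid hormone, had 0.13 and -0.83 in the same order (0.96 ± 0.209, adjusted p = 0.0313), Rtn4rl1, a Nogo receptor homologue, 0.20 and -0.50 (0.70 ± 0.155, adjusted p = 0.0354), and Cnn2, a calponin, 0.47 and -0.23 (0.70 ± 0.145, adjusted p = 0.0234). On the other side Abhd1, a hydrolase-fold gene, had -1.18 in 129S1/SvImJ and 0.19 in C57BL6/J (-1.37 ± 0.197, adjusted p = 1.29e-05), and Rnase1, a secreted ribonuclease, -1.59 and -0.20 (-1.40 ± 0.261, adjusted p = 0.00713). Pik3ip1, an inhibitor of PI3 kinase, had -0.13 and 0.66 (-0.79 ± 0.167, adjusted p = 0.0239).

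The remaining gene lists held few or no called members. Over the 68 measured genes of the mitochondrial ribosome none passed, although 66 differences were above 0 with a median of 0.12, and 28 rose with CR in the extra-cut strains (6.42% of all genes passed there) and 9 in the unchanged strains (3.09% of all genes). None of 20 glycolysis genes passed (median 0.18), none of 19 sarcomere genes (0.09), none of 68 respiratory chain genes (0.06), none of 19 citric acid cycle genes (0.08) and none of 18 genes of fatty acid oxidation (-0.01). None of 11 genes of MHC class II and complement passed, and all 11 were below 0 (median -0.47). Without the 5 arrays that stood apart 14 mitochondrial ribosome, 11 glycolysis and 8 sarcomere genes were higher, 1 glycolysis gene was lower and 8 MHC class II and complement genes were lower, when 9.38% of all genes passed. In the same fit 9 respiratory chain and 6 citric acid cycle genes were higher, and 0 of fatty acid oxidation passed. Of the lists with a called member named above, 10 cardiac ion channel genes were higher and 1 lower, 7 heat shock genes and 3 tubulins were higher, and 1 extracellular matrix gene was higher and 11 lower. The FoxO and atrophy list then had 7 higher and 2 lower, and the autophagy list 4 higher and 1 lower. With the marker covariates no gene of the lists for the mitochondrial ribosome, glycolysis, the sarcomere, or MHC class II and complement passed. The medians were 0.01 for the mitochondrial ribosome, 0.06 for glycolysis and -0.01 for the sarcomere, while that of MHC class II and complement was -0.38.

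None of the 7 genes that the study took to qPCR in heart had a difference that passed. Without the 5 arrays that stood apart 3 did, Tuba8 (0.62, adjusted p = 0.00133), Alas1 (0.57, adjusted p = 0.00468) and Scd4 (-0.52, adjusted p = 0.0277), and with the marker covariates 0 did. All 7 changed with CR in both strain sets, and since the study chose them on these animals this is no independent evidence. The transferrin receptor gene Tfrc rose by 1.82 in the extra-cut strains and 1.73 in the unchanged strains (difference 0.09 ± 0.236, adjusted p = 0.952), although 129S1/SvImJ had 2.64 and C57BL6/J 1.00. Tuba8, a second alpha-tubulin, rose by 1.32 in the extra-cut and 0.83 in the unchanged strains (0.49 ± 0.15, adjusted p = 0.169), and Alas1, the first enzyme of haem synthesis, by 1.28 and 0.83 in the same order (0.46 ± 0.157, adjusted p = 0.251). Scd4, a fatty acid desaturase, had effects of -1.46 and -0.92 (difference -0.54 ± 0.161, adjusted p = 0.144). Retsat, Aox1 and Chrna2 had differences of -0.28 (adjusted p = 0.309), -0.20 (0.588) and 0.01 (0.993).

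Lists of a strain were made at an unadjusted p under 0.01 within that strain, with limma in place of the methods' t-test. The 129S1/SvImJ list held 2072 genes (10.4% of those tested) and the C57BL6/J list 849 (4.26%). After adjustment 1361 (129S1/SvImJ) and 50 (C57BL6/J) of these passed. By a Student t-test the lists held 2104 genes in 129S1/SvImJ and 811 in C57BL6/J, 1386 and 47 after Benjamini-Hochberg. It was run on log2 signals, whereas the study describes its t-tests as done on the raw scale. The lists of the unchanged strains held 404 genes in C3H/HeJ, 312 in CBA/J, 251 in DBA/2J and 1503 in B6C3F1/J, so that an unchanged strain had a longer list than C57BL6/J. The extra-cut lists shared 321 genes in the same direction, 15.5% of the 129S1/SvImJ list and 37.8% of the C57BL6/J list, with 239 higher and 82 lower. By the t-test on log2 signals they shared 295. Of the 321, 188 were on no list of an unchanged strain, 8 were on all 4, and 39 were among the 58.

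Marker means of several cell types differed between the diet arms in C57BL6/J, where the atrial and adipocyte means varied widely between mice. These means were not tested against diet. The atrial marker mean had a diet effect of -1.53 there and of 0.03 in 129S1/SvImJ, against 0.41 in C3H/HeJ, 0.57 in CBA/J, -0.13 in DBA/2J and 0.89 in B6C3F1/J. The white adipocyte mean (12 of 13 genes measured) had an effect of -0.94 in C57BL6/J and -0.16 in 129S1/SvImJ, and -0.16 to 0.24 in the unchanged strains. Fibroblast markers had -0.45 and mesothelial markers -0.65 in C57BL6/J, and ventricular muscle markers 0.60. No single atrial marker passed (0 of 13), though all 13 differences were below 0. Without the 5 arrays that stood apart 10 of the 13 passed, all lower (median -1.42; 76.9%, against 9.38% of all genes). The part of these markers in the differences was not tested beyond the covariates. Each extra-cut strain was also left out of the fit, so that its arrays no longer entered the residual variance. They did enter it for the counts of 245 (C57BL6/J) and 28 (129S1/SvImJ) above. With C57BL6/J alone as the extra-cut strain 90 genes passed, among them 3 clock genes and 0 PPAR-alpha targets. With 129S1/SvImJ alone 32 passed, among them 4 clock genes and 5 PPAR-alpha targets. The clock list then had medians of 0.37 (C57BL6/J alone) and 0.31 (129S1/SvImJ alone), and the PPAR-alpha list of -0.08 (C57BL6/J alone) and -0.19 (129S1/SvImJ alone).

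**Figure D5:**
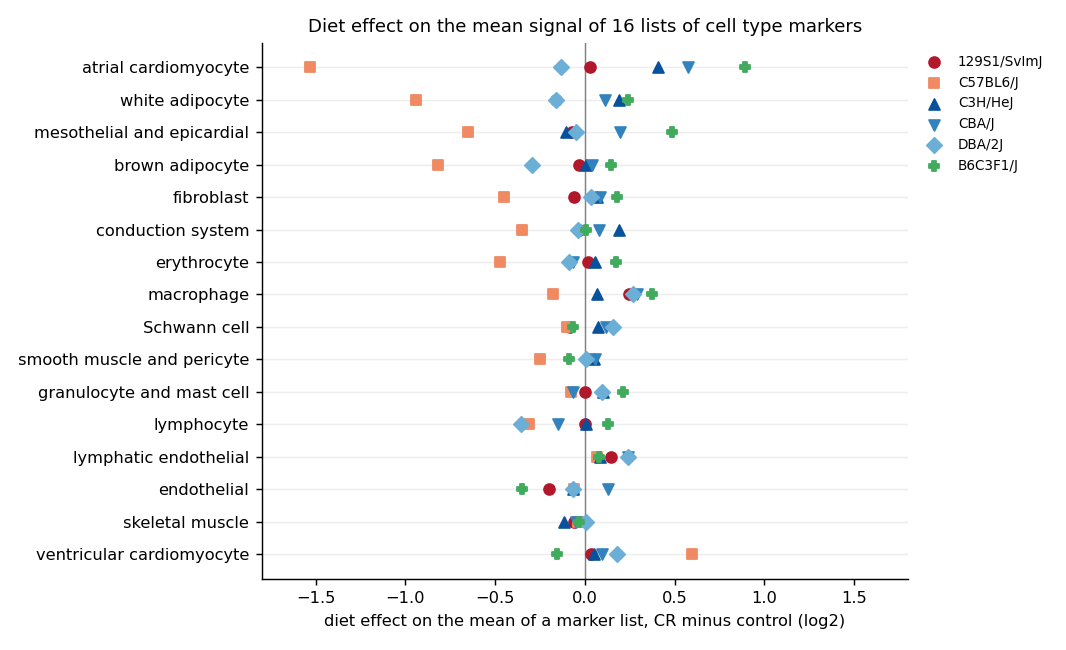
Diet effect (CR minus control, log2) on the mean signal of 16 lists of cell type markers, 1 point per strain. The orange squares of C57BL6/J lie far left for atrial muscle (-1.53), white adipocytes (-0.94) and mesothelium (-0.65), where the red points of 129S1/SvImJ lie near 0.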

How the data were processed

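Male mouse hearts of 7 strains on a control or CR diet were measured on 112 arrays, 1 mouse each. The authors made the log2 values with gene-level RMA (sketch quantiles) in Affymetrix Expression Console, whose version was not stated. Precision is set by how many arrays there are. RMA brings all arrays to a common distribution, which hides a shift shared by most genes, and it narrows differences of dim genes.

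The platform annotation gave a single symbol to 21789 of 35556 probe sets, several to 1621 and none to 12146, and 21698 were found among the RefSeq genes. For 999 genes with several probe sets the brightest stood for the gene, which left 19938 genes without a filter. Groups were taken from the sample titles, and the feeding of each strain from the study's methods. limma 3.58.1 in R 4.3.3 fitted the 12 group means of 95 arrays (lmFit, eBayes). Contrasts were 2-sided and adjusted over all genes (Benjamini-Hochberg, threshold 0.05). Values after ± are standard errors of the fit. Strain lists used the arrays of a strain alone. Gene lists are described by counts and medians, with no set test. The scripts were tested on simulated data. Each gene had the same spread in every simulated group, so unequal spreads of groups were not covered. Python 3.11.15, pandas 2.3.3, numpy 2.4.6 and matplotlib 3.10.9 were also used, with the R package data.table (1.17.8).

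The comparison and the gene lists were chosen with earlier results of these data known. Named genes were the 12 highest and 12 lowest differences among called genes, the 8 highest and 8 lowest with both extra-cut strains outside the unchanged ones, up to 4 called members per list, the 7 qPCR genes, and the 4 highest and 4 lowest between the extra-cut strains; others, such as Nr1d2, Per3 and Nr1d1, were named after their values were seen. Alternatives covered normalization, dim genes, probe sets, weights, variance, arrays, strains and marker covariates.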

Additional observations from a re-analysis of the deposited data

Results flagged for a closer look

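Single mice lay far from the other 7 of their group for some of the genes shown per mouse, by Dixon's criterion on log2 signals, which flags about 5% of groups by chance. C57BL6/J CR replicate 4 was low for Tuba4a (9.58), Ciart (5.59) and Lrrc10 (8.5). B6C3F1/J control replicate 2 was low for Lrrc10 (8.94), 129S1/SvImJ control replicate 8 low for Kcne1 (4.97) and high for Cyp1b1 (7), and DBA/2J control replicate 8 high for Kcne1 (6.96). CBA/J control replicate 8 was low for Gm4956 (3.5), C3H/HeJ control replicate 2 low for Angptl4 (6.26), CBA/J CR replicate 2 high for Cyp1b1 (7.36), C3H/HeJ CR replicate 8 high for Arntl (6.05) and C57BL6/J control replicate 3 high for Slamf7 (5.73).

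Whole arrays stood apart in their correlation with the rest of their group: C57BL6/J CR replicate 4 (0.96), C3H/HeJ control replicate 6 (0.985), CBA/J control replicate 1 (0.894), DBA/2J control replicate 5 (0.963), B6C3F1/J CR replicate 2 (0.961) and the failed DBA/2J CR replicate 7 (0.262), which was left out.

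The named genes whose diet effect differed between the strain sets by the test of that difference had these log2 values, extra-cut minus unchanged. Those above 0 were Tuba4a 1.113, Ciart 1.013, Lrrc10 0.929, Kcne1 0.838, Gm4956 0.724, Dbp 0.63, Per2 0.626, Wee1 0.622, Slc25a33 0.614, Bhlhe41 0.583, Tef 0.564, Mid1ip1 0.55 and Stip1 0.297. Those below 0 were Angptl4 -1.299, Cyp1b1 -0.962, Arntl -0.911, Pdk4 -0.866, Ucp3 -0.787, Fam124b -0.631, Slamf7 -0.574, Klra2 -0.529, Clmp -0.516, Bnip3 -0.506, Cldn15 -0.498, H1f2 -0.462, Mmp14 -0.437 and Clock -0.399. Between the extra-cut strains, 129S1/SvImJ minus C57BL6/J, the values were 1.775 for Acta2, 0.959 for Dio2, 0.699 for Rtn4rl1, 0.699 for Cnn2, -0.79 for Pik3ip1, -1.089 for Lrrc10, -1.367 for Abhd1 and -1.395 for Rnase1.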

How the results depend on the processing

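The number of called genes moved widely between alternatives. The difference, with 58 genes, gave 3267 with array weights, 1871 without the 5 arrays that stood apart, 20 with the failed array kept, 90 without 129S1/SvImJ, 32 without C57BL6/J and 29 without CBA/J. Its other alternatives stayed within a factor of 1.5 of 58. The diet effect of the extra-cut strains (1281) gave 3283 with weights, 2807 without the 5 arrays and 467 with the failed array. That of the unchanged strains (616) gave 4199, 1826 and 220 in the same order, 300 without C3H/HeJ and 132 without B6C3F1/J. For 129S1/SvImJ minus the unchanged strains (28) the counts were 230, 59 and 11 in that order, and 54 with the marker covariates. For C57BL6/J minus the unchanged strains (245) they were 4109, 3756 and 56, and 30 with the covariates. Between the extra-cut strains (11) they were 1690, 1051 and 2, and 7 after median centring. Called genes with both extra-cut strains outside (55) numbered 1324 without the 5 arrays and 20 with the failed array. Called clock genes (8) numbered 16 with weights, 13 without the 5 arrays, 5 with the failed array, 3 without 129S1/SvImJ and 4 without C57BL6/J.

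With single arrays left out in turn the counts ran from 42 to 261 for the difference, from 1063 to 1838 and from 483 to 1233 for the extra-cut and unchanged effects, from 20 to 38 and from 76 to 1678 for 129S1/SvImJ and C57BL6/J minus the unchanged strains, from 4 to 150 between the extra-cut strains, and from 7 to 9 for clock genes. The arrays whose removal gave the highest counts were C57BL6/J CR replicate 4 (261, 1838, 1678 and 150) and CBA/J control replicate 1 (1233), and the lowest counts for the difference (42) and for C57BL6/J minus the unchanged strains (76) came without C57BL6/J CR replicate 3. The count of 4 between the extra-cut strains came without 129S1/SvImJ CR replicate 1. The causes were not tested. Same-numbered mice of different groups shared only a number (median correlation of their deviations 0.00791, against 0.00235 for mice of different numbers), and with a replicate block 53 genes passed. None of the 58 genes, which were picked on these same arrays, changed sign under an alternative, and 39 of them passed with every single array left out.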

Other observations

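Balbc/J, left out of the comparison because both of its arms received more food, gave 0 genes with a diet effect past an adjusted p of 0.05 in a limma fit of all 7 strains, and 884 genes (4.43%) at an unadjusted p under 0.05. Among its clock genes the diet effect was 0.18 for Arntl, 0.09 for Clock, -0.10 for Dbp, -0.12 for Ciart, -0.23 for Per2, 0.05 for Tef, -0.28 for Bhlhe41, -0.09 for Nr1d2 and -0.22 for Nr1d1. Angptl4 had 0.42, Pdk4 0.31 and Ucp3 0.47 in Balbc/J, so these fasting genes were not lower in its CR mice. Tuba4a had 0.83 there, next to the 0.85 of DBA/2J. The atrial marker mean of Balbc/J had a diet effect of -0.08, with a range of 6.53 to 10 in CR mice and of 6.53 to 9.73 in control mice.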
